A study of Mus musculus with 12 samples.

Results

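Molecular chaperones and heat shock proteins were followed in the striatum of BACHD mice after suppression of wig-1. The genes were taken by name: probes whose gene symbol belongs to the Hsp70 and Hsp110 (Hspa, Hsph), small heat shock protein (Hspb), Hsp90, mitochondrial chaperonin (Hspd, Hspe), DNAJ (Dnaja, Dnajb, Dnajc) or CCT chaperonin families. A probe counted as measured when at least 4 of the 12 arrays gave it a detection p-value under 0.01, and 81 probes for 56 genes met this, of 17188 measured probes and 10031 measured genes in all. Each gene is given below by its brightest measured probe unless another probe is named.

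The mice were 5 months old and carried a bacterial artificial chromosome with full-length mutant human huntingtin, driven by the regulatory elements of the huntingtin gene itself, on the FVB background. RNA of 1 mouse was hybridised to each Illumina MouseWG-6 v2 array. There were 3 groups of 4 mice: PBS, the wig-1 ASO, and a control ASO, chemically alike but matching no known gene, with a single striatal bolus of 75 µg given by the study for the ASOs in these mice. All 3 groups carried the transgene, and by the study's methods all had been injected, although the labels mark the PBS arrays as no treatment. By that account none was an untouched or transgene-free control. The sources used here do not say how many weeks after injection the arrays were made.

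Chaperones bind proteins that are unfolded or misfolded and either hold them in a soluble state or help them to fold. The small heat shock proteins hold clients without ATP, the Hsp70 proteins bind and release them in cycles of ATP hydrolysis that J-domain (DNAJ) proteins start and Hsp110 proteins reset, and Hsp90 and the ring-shaped chaperonins finish the folding of particular clients. Several of them act on huntingtin with an expanded glutamine tract, the protein that aggregates in Huntington disease, and many are induced by heat shock factor 1 when unfolded protein builds up.

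Wig-1 itself (Zmat3) had log2 signals of 8.57, 8.60, 8.37 and 8.44 on the PBS arrays, 6.89, 6.63, 6.77 and 5.95 on the wig-1 ASO arrays, and 8.48, 8.47, 8.53 and 8.31 on the control ASO arrays. The wig-1 ASO group stood at 26.2% of the PBS signal (limma, adjusted p = 0.000842), and every array followed its label. The second principal component (15.9% of the variance) was highest on PBS replicate 4 (47.1) and wig-1 ASO replicate 1 (27.7). PBS replicates 2 and 3 lay at its other end (-22.0 and -26.5). On the first (25.5%) wig-1 ASO replicate 1 lay at -4.2, among the control ASO arrays, and the other wig-1 ASO arrays at 33.1 to 49.6. Several results that rest on PBS replicate 4 or wig-1 ASO replicate 1 are also given without them, though not all. Leaving out wig-1 ASO replicate 1 raised the genes called against PBS from 382 to 785. Markers of medium spiny neurons, the main neurons of the striatum, were measured for 16 of 19 genes listed. Between 15228 and 17198 probes were detected per array.

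Of the chaperone genes measured in the BACHD striatum, only the small heat shock protein Hspb6 passed the test in wig-1 ASO against PBS. That call did not hold against control ASO or in every fit that left out 1 array. In wig-1 ASO against PBS, 26 of the 56 genes were higher and 30 were lower, with a median log2 change of -0.01, the same as over all measured genes. At an adjusted p under 0.05 in limma, 1 of 56 genes was called, against 3.81% of all genes, and the SAM test called that same gene at a false discovery rate of 0.1. By probe the count was 1 of 81, against 3.36% of all probes. At an unadjusted p under 0.05 there were 4 (Hspb6 and Hspb8 higher, Dnaja2 and Hspa4l lower), which is 7.14% against 18.7% of all genes. The 4 arrays of one group lay wholly outside those of the other for 3 genes (Hspb6 and Cct4 higher, Dnaja2 lower), where 11% of all genes did so. For 47 of the 56 genes the 95% interval of the change lay within 2-fold either way (83.9%, against 81.8% of all genes), and for 35 it lay within 1.5-fold. For the rest, changes of these sizes were not excluded. The p-values measure the spread between mice, and in a whole-tissue sample fewer cells of a type and less RNA per cell cannot be told apart.

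**Figure D1:**
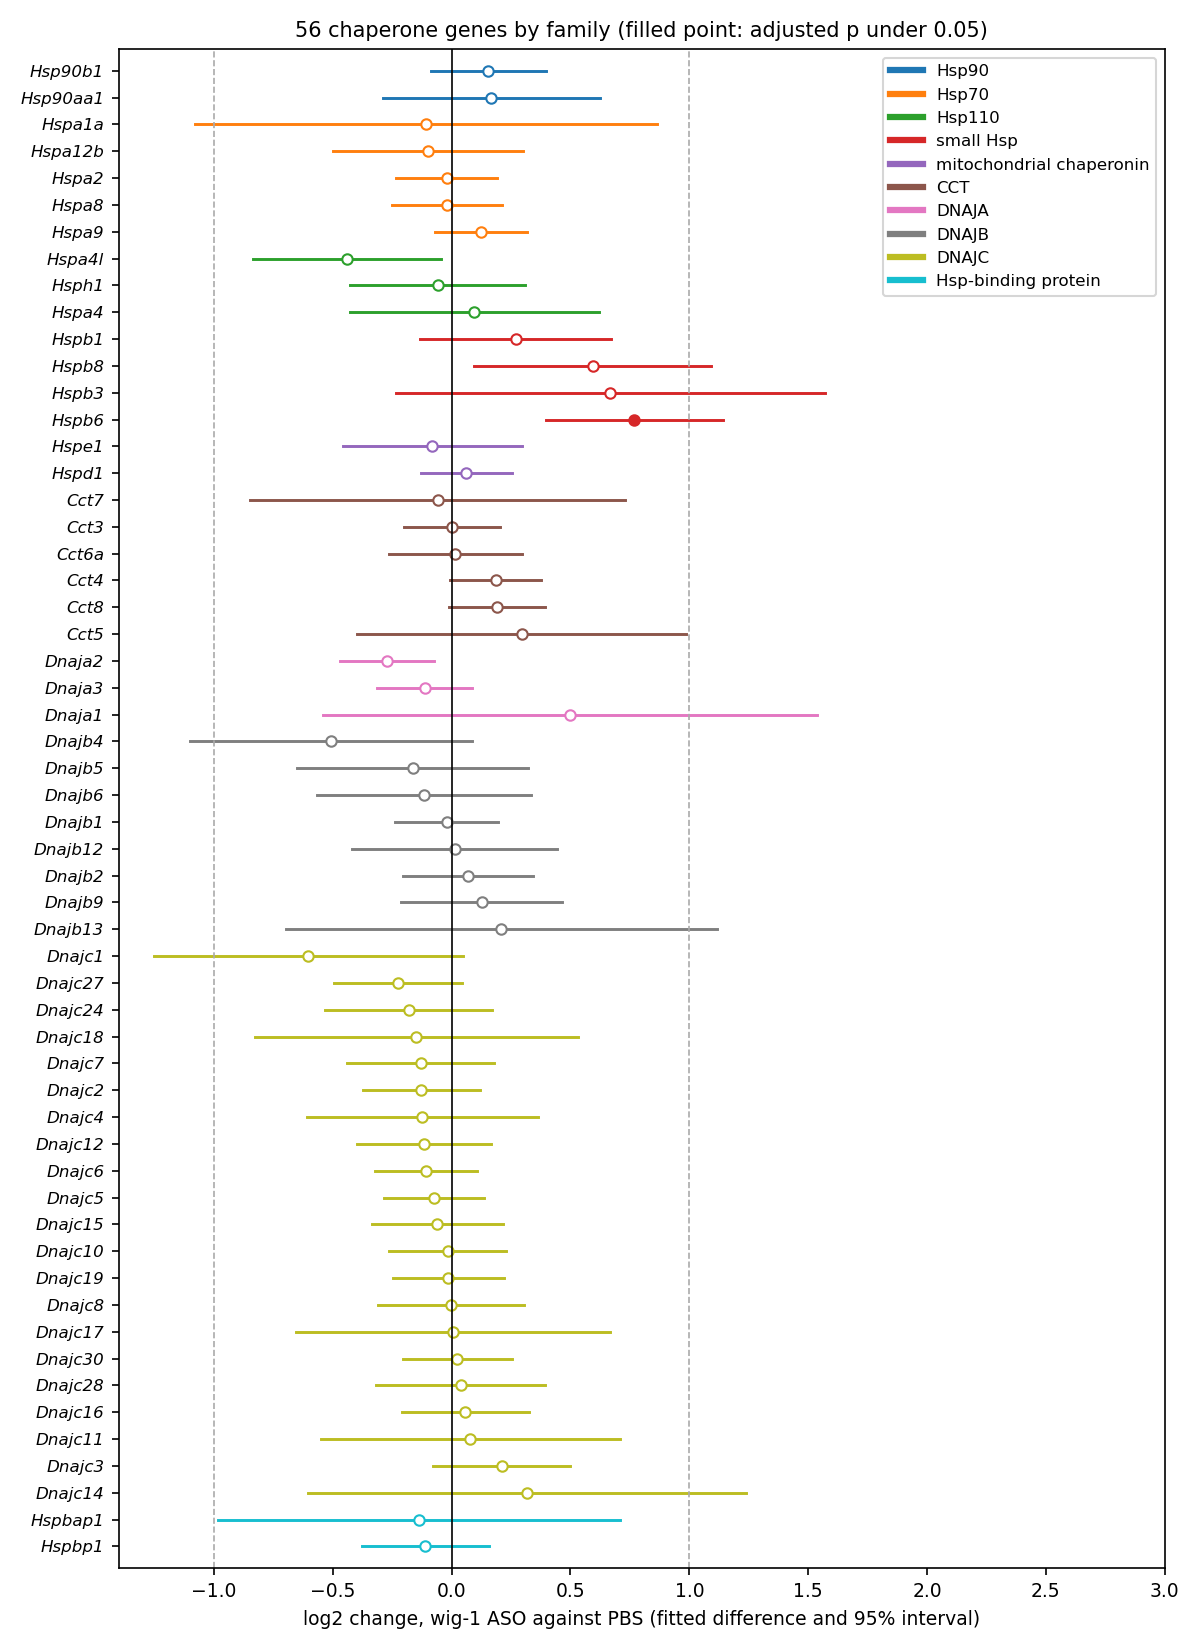
Fitted log2 change in wig-1 ASO against PBS for each of the 56 chaperone genes (points) with its 95% interval (bars), 4 arrays a group, grouped by family, with dashed lines at 2-fold either way. Hspb6 is the 1 filled point (adjusted p under 0.05), at 0.77, with Hspb8 at 0.59 and Hspb1 at 0.27.

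Among the small heat shock proteins, Hspb1, Hspb6 and Hspb8 were detected on all 12 arrays. They were higher in wig-1 ASO than in PBS by 0.27, 0.77 and 0.59 on the log2 scale, and Hspb6 passed the test. Their direction was the same under all alternatives tried, including centring on the median of the detected probes. Hspb3 was also measured but reached the detection limit mainly through the wig-1 ASO arrays, where it was higher, so its direction is not counted with theirs. The summed signal of all 4 was 312 to 328 on the PBS arrays, 364 to 598 on the wig-1 ASO arrays and 294 to 415 on the control ASO arrays. The wig-1 ASO range lay above the PBS range but overlapped that of the control ASO. This sum includes the called Hspb6 and also Hspb3, so it is not a result apart from theirs.

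Hspb6 (Hsp20) is a small heat shock protein abundant in muscle and also present in brain. Its log2 signal was 7.17, 6.99, 6.96 and 7.30 on the PBS arrays, 7.46, 7.95, 7.79 and 8.28 on the wig-1 ASO arrays, and 7.38, 6.89, 7.18 and 7.14 on the control ASO arrays. Every wig-1 ASO array lay above every PBS and every control ASO array, the lowest of them being replicate 1. It rose 1.70-fold over PBS (95% interval 1.32 to 2.21, log2 change 0.77, SE 0.17; limma, adjusted p = 0.0332; exact two-sided permutation p = 0.029, the smallest that 70 arrangements allow). Against the control ASO the log2 difference was 0.72 (95% interval 0.35 to 1.10), which did not pass the test (limma, adjusted p = 0.0733), and the control ASO differed from PBS by 0.04 (limma, adjusted p = 0.97).

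The Hspb6 call rested on few arrays. It was kept in 4 of the 12 fits that left out 1 array each, with adjusted p-values in limma from 0.00691 (replicate 1 of the wig-1 ASO left out) to 0.0983 (its replicate 2 left out), and the change stayed between 0.63 and 0.97 in all alternatives. Without wig-1 ASO replicate 1 and PBS replicate 4 together, the change was 0.97 (limma, adjusted p = 0.00989).

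Hspb8 (Hsp22) works with the co-chaperone Bag3 to pass aggregated proteins to autophagy. Its log2 signal was 6.98, 7.21, 7.35 and 6.82 on the PBS arrays, 7.08, 8.02, 7.86 and 7.77 on the wig-1 ASO arrays, and 7.52, 6.99, 7.83 and 7.26 on the control ASO arrays. Replicates 2, 3 and 4 of the wig-1 ASO lay above all PBS arrays, replicate 1 lay among them, and the control ASO arrays overlapped both. The change over PBS was 0.59 (95% interval 0.10 to 1.09), which did not pass the test (limma, adjusted p = 0.195), and a second probe gave 0.69. Without wig-1 ASO replicate 1 the change was 0.79 (limma, adjusted p = 0.0378), the only alternative in which Hspb8 was called.

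Hspb1 (Hsp25 in the mouse), the widely induced small heat shock protein that also guards the actin cytoskeleton, had log2 signals of 5.54, 5.02, 4.91 and 5.44 in PBS, 5.40, 5.17, 5.62 and 5.80 in wig-1 ASO, and 5.66, 5.43, 5.27 and 5.14 in control ASO. The groups overlapped, with a change over PBS of 0.27 (95% interval -0.13 to 0.67; limma, adjusted p = 0.491). Hspb3, best known from muscle, was detected on 5 arrays, 3 of them in the wig-1 ASO group. Its log2 signal was 3.57, 2.07, 1.82 and 2.29 in PBS, 3.28, 2.66, 2.80 and 3.70 in wig-1 ASO, and 1.47, 2.41, 2.12 and 3.03 in control ASO. The difference of 0.67 had an interval from -0.23 to 1.57, so at this signal neither a doubling nor no change could be told. Hspb2, Hspb7, Hspb9 and Hspb11 were detected on 0 arrays, and alpha-B crystallin (Cryab), a small heat shock protein outside the naming rule, had a change of 0.18 (limma, adjusted p = 0.591).

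**Figure D2:**
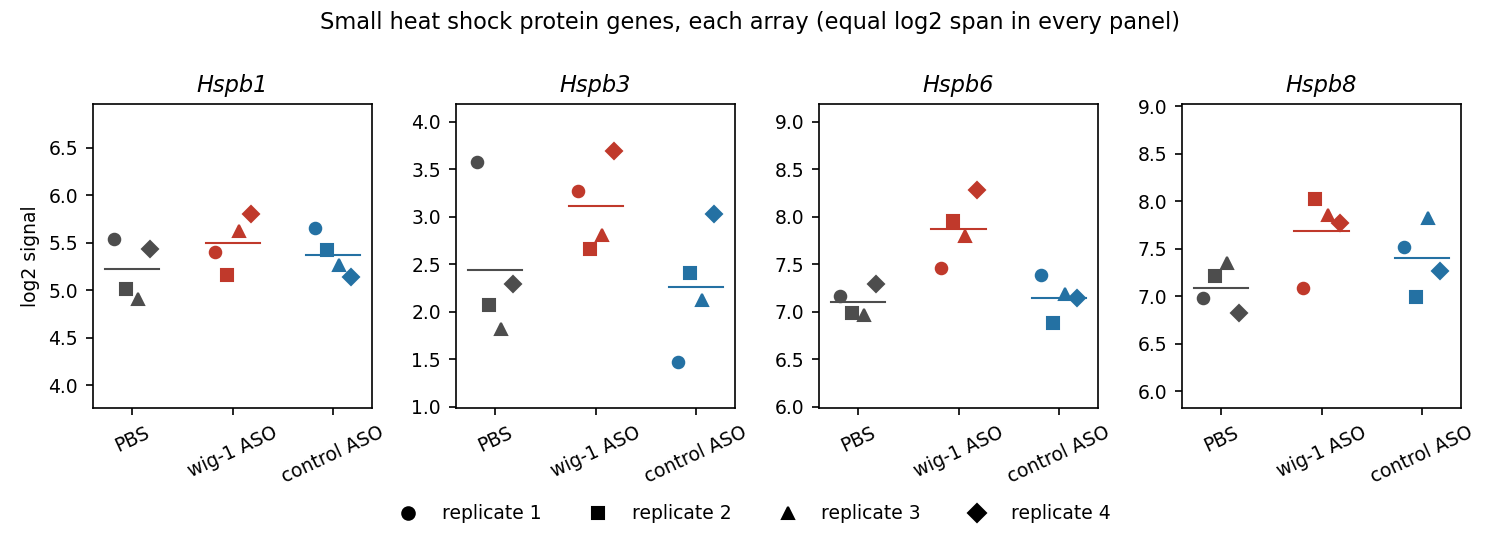
Log2 signal of the 4 measured small heat shock protein genes on each of the 12 arrays (symbols mark the replicate number, horizontal lines the group means of 4), each panel spanning the same number of log2 units. The wig-1 ASO arrays of Hspb6 lie at 7.46 to 8.28, above PBS (6.96 to 7.30) and control ASO (6.89 to 7.38), while the groups overlap for the others.

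Heat shock factor 1 binds inverted repeats of the bases GAA, and the windows below show where such repeats stand in the promoters of the small heat shock proteins, the family that holds the called gene Hspb6. Windows of 30 bases are from the RefSeq promoters of build GRCm38.p6, 250 bases before to 50 after the gene start, 5′ to 3′ on the strand of the gene, with the repeat in capitals.
Hspb6, second promoter, chr7:30553170-30553199 (+): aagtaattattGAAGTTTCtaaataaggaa
Hspb8, chr5:116422844-116422873 (-): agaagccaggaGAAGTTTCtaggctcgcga
Hspb1, chr5:135887791-135887820 (+): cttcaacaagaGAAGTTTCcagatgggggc
Hspb1, second match, chr5:135887811-135887840 (+): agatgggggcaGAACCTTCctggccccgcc
Hspb3, chr13:113663882-113663911 (-): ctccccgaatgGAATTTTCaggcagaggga
Each window holds a pair of units (GAANNTTC or TTCNNGAA, searched on both strands), and these are all the matches in promoters of the 4 measured genes. Such a pair was found in 21 of the 82 promoters of chaperone genes (25.6%) and in 15.1% of all 32851 promoters. A match describes the letters and is not evidence of a bound site. Promoters were found for 64 of the 77 chaperone genes on the array.

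Markers of some other cells differed between wig-1 ASO and PBS. Of 11 measured microglia markers 8 were called higher against PBS, where 2.83% of all genes were, and their summed signal was 1292 to 1447 in PBS, 2404 to 4909 in wig-1 ASO and 1331 to 2218 in control ASO. Of 9 measured reactive astrocyte genes 7 were called higher, with sums of 1732 to 2206, 3308 to 9793 and 1923 to 2951. Of 11 general astrocyte markers 1 was called higher, Gfap, which is also on the reactive list. Their median change was 0.19, with 9 higher and 2 lower. The number of reactive astrocyte genes called moved with the arrays in the fit. Leaving out wig-1 ASO replicate 2, 3 or 4 gave 1, 4 and 3, leaving out PBS replicate 2, 3 or 4 gave 3, 2 and 4, and leaving out any other array gave 5 to 7. The microglia count lay between 6 and 10 in these fits. Against control ASO, 4 of 11 microglia markers and 3 of 9 reactive astrocyte genes were called higher in limma, and 2 and 0 by SAM. Of all genes 1.08% were called either way in limma there. Both limma counts fell to 0 in at least 1 fit that left out 1 array. Smooth muscle and pericyte markers (Hspb6 is abundant in muscle) had 0 of 10 called in limma (0 at an unadjusted p under 0.05 and 0 by SAM), and their sums of 510 to 812 in PBS, 538 to 961 in wig-1 ASO and 725 to 857 in control ASO overlapped. Compared with PBS, 9 of 10 were higher in wig-1 ASO (median 0.22) and 6 of 10 in control ASO (median 0.23). Of 16 medium spiny neuron markers 0 were called in limma and 0 by SAM, while 11 were lower at an unadjusted p under 0.05 (8.25% of all genes), and 9 were called without wig-1 ASO replicate 1. Control ASO was also lower than PBS for 14 of the 16 (median -0.34, against -0.59 in wig-1 ASO). There 3 were lower at an unadjusted p under 0.05 in limma, and 1 was in wig-1 ASO against control ASO (6.29% and 14.7% of all genes either way). Tagln and Cnn1 of smooth muscle, Itgam and Ptprc of microglia and S1pr3, Steap4 and Cxcl10 of the reactive astrocyte list did not reach the detection limit. The part of these cells in the Hspb6 and Hspb8 values was not tested.

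Hsp90 folds kinases and steroid receptors in the cytosol, and its relative Hsp90b1 (Grp94) folds secreted and membrane proteins in the endoplasmic reticulum. Hsp90aa1, the inducible cytosolic form, had log2 signals of 8.08, 8.47, 8.32 and 7.50 in PBS, 7.82, 8.24, 8.37 and 8.60 in wig-1 ASO, and 8.38, 8.43, 8.43 and 8.24 in control ASO. The groups overlapped and PBS replicate 4 was the lowest of the 12. The change over PBS was 0.17 (95% interval -0.29 to 0.62; limma, adjusted p = 0.738), and it was -0.03 without PBS replicate 4. A second Hsp90aa1 probe gave 0.23 over PBS, but in a comparison with control ASO its probes had opposite signs, over 0.5 apart. Hsp90b1 stood at 10.38, 10.22, 10.21 and 10.07 in PBS, 10.16, 10.52, 10.42 and 10.41 in wig-1 ASO, and 10.24, 10.45, 10.35 and 10.16 in control ASO, a change of 0.16 (95% interval -0.09 to 0.40; limma, adjusted p = 0.515). Hsp90ab1, the constitutive cytosolic form, has no annotated probe in the table used here.

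The Hsp70 genes in wig-1 ASO stood close to PBS on average. Of 5 measured genes 1 was higher and 4 lower, by -0.11 to 0.12 on the log2 scale. All 5 were higher in control ASO than in PBS (median 0.18) and all 5 lower in wig-1 ASO than in control ASO (median -0.20), but none passed the test in either comparison (0 by SAM), and both comparisons share the control ASO arrays. Other lists had the same signs: choroid plexus and ependyma markers were higher in control ASO than in PBS for 10 of 10 genes (median 1.27) and lower in wig-1 ASO than in control ASO for 10 of 10 (median -0.71), and immediate early genes, which neuronal activity induces, for 8 of 9 (median 0.30) and 9 of 9 (median -0.45). None of these was called in limma or by SAM. At an unadjusted p under 0.05 there were 1 choroid plexus and 4 immediate early genes in control ASO against PBS, and 0 and 5 in wig-1 ASO against control ASO. The summed signal of the choroid plexus list was 1250 to 10836 in PBS, 298 to 13479 in wig-1 ASO and 3443 to 13929 in control ASO, and that of the immediate early list 3381 to 5118, 3114 to 4730 and 5143 to 6125. Their part in the Hsp70 values was not tested. Among them Hspa12b, an atypical relative expressed in endothelium, was 0.41 lower than in control ASO at an unadjusted p of 0.0465 in limma, with an adjusted p of 0.352.

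Hspa8 (Hsc70) is the constitutive Hsp70 that also uncoats clathrin vesicles and drives chaperone-mediated autophagy. Its log2 signal was 12.36, 12.31, 12.03 and 12.38 in PBS, 12.23, 12.10, 12.37 and 12.30 in wig-1 ASO, and 12.47, 12.42, 12.55 and 12.36 in control ASO. Wig-1 ASO and PBS overlapped fully, with a change of -0.02 (95% interval -0.25 to 0.21; limma, adjusted p = 0.954). Hspa9 (mortalin), the Hsp70 that pulls proteins into mitochondria, had a difference from PBS of 0.12 (95% interval -0.07 to 0.32; limma, adjusted p = 0.52), and Hspa2, a form abundant in testis, one of -0.02.

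Hspa1a, the classical heat-inducible Hsp70, was dim and was detected on 9 arrays. Its log2 signal was 3.75, 3.58, 1.66 and 3.07 in PBS, 3.11, 3.20, 3.47 and 1.84 in wig-1 ASO, and 3.92, 3.54, 3.53 and 3.58 in control ASO. A change over PBS of -0.11 had an interval from -1.08 to 0.86, which leaves changes of up to about 2-fold either way unmeasured. Every wig-1 ASO array lay below every control ASO array, with a log2 difference of -0.73 (limma, adjusted p = 0.518). The near-identical copy Hspa1b was detected on at most 2 arrays and was not measured, and probes may not separate the transcripts of this pair. Hspa5 (BiP), the Hsp70 of the endoplasmic reticulum and the usual gauge of its stress response, was not well above background on any array, and neither were Hspa13 and Hspa14.

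Hsp110 proteins exchange the nucleotide of Hsp70 and disaggregate proteins together with it. Hsph1 (Hsp105) had log2 signals of 10.16, 10.03, 9.55 and 10.18 in PBS, 10.17, 9.68, 10.06 and 9.78 in wig-1 ASO, and 10.18, 9.75, 9.98 and 10.06 in control ASO. These overlapped, with a change of -0.06 (95% interval -0.43 to 0.31; limma, adjusted p = 0.901), and Hspa4 (Apg-2) had one of 0.10 (95% interval -0.43 to 0.62).

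Hspa4l (Apg-1), a relative abundant in testis, gave opposite readings from its probes. The brightest stood at 4.03, 4.33, 4.77 and 4.55 in PBS, 4.01, 4.14, 4.24 and 3.53 in wig-1 ASO, and 4.38, 4.32, 4.18 and 4.16 in control ASO, a change of -0.44 (95% interval -0.83 to -0.05; limma, adjusted p = 0.223). A dimmer probe stood at 3.52, 1.68, 3.02 and 2.76 in PBS, 3.45, 3.76, 3.32 and 3.37 in wig-1 ASO, and 3.33, 3.45, 3.25 and 3.88 in control ASO, a change of 0.73 (95% interval 0.04 to 1.42; limma, adjusted p = 0.25). Neither probe passed the test and no direction can be given for the gene.

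The mitochondrial chaperonin Hspd1 (Hsp60) and its lid Hspe1 (Hsp10) fold proteins of the matrix and are transcribed from a shared promoter. Hspd1 had log2 signals of 8.86, 8.77, 8.77 and 8.76 in PBS, 8.79, 8.80, 8.98 and 8.84 in wig-1 ASO, and 8.80, 9.03, 8.88 and 8.83 in control ASO. The groups overlapped within a narrow band, and the change of 0.06 had an interval from -0.13 to 0.25 (limma, adjusted p = 0.776). Hspe1 stood at 7.59, 7.65, 7.77 and 7.42 in PBS, 7.38, 7.56, 7.42 and 7.74 in wig-1 ASO, and 7.23, 8.01, 7.30 and 7.25 in control ASO, with a change of -0.08 (95% interval -0.46 to 0.30; limma, adjusted p = 0.86).

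A run of 3 units of the heat shock element is the form bound most tightly by heat shock factor 1. Windows of the genes that carry it are shown as a description of their letters. Heat-inducible genes need not carry it, and Hspa1a held only the shorter pair.
Hspd1, chr1:55088055-55088084 (-): gcggggccTTCCGGAAGGTTCtagaacgga
Hsph1, chr5:149636279-149636308 (-): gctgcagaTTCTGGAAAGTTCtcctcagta
Dnajb6, chr5:29735844-29735873 (+): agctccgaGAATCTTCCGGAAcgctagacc
Capitals mark GAANNTTCNNGAA or TTCNNGAANNTTC, searched on both strands, and each such run also holds the shorter pair. The Hspd1 window is shared, on the other strand, with the promoter of Hspe1. The run was found in 6 of 82 chaperone promoters (7.32%, 4 genes) and in 0.603% of all promoters. None of these 4 genes (Hspd1, Hspe1, Hsph1, Dnajb6) passed the test in any comparison, and their log2 changes in wig-1 ASO against PBS lay between -0.12 and 0.06.

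The cytosolic chaperonin CCT folds actin and tubulin and binds mutant huntingtin. Of 6 measured subunits that the naming rule took, 5 were higher in wig-1 ASO than in PBS, with a median of 0.10 and a range of -0.06 to 0.30, and none passed the test (0 by SAM, and 0 at an unadjusted p under 0.05). The rule misses the first subunit, Tcp1 (CCT1), which was detected on all 12 arrays and had log2 differences of -0.03 from PBS (limma, adjusted p = 0.934) and -0.14 from control ASO (limma, adjusted p = 0.717). Cct4 had log2 signals of 9.29, 9.20, 9.24 and 9.30 in PBS, 9.51, 9.41, 9.42 and 9.43 in wig-1 ASO, and 9.42, 9.26, 9.27 and 9.11 in control ASO. All wig-1 ASO arrays lay above all PBS arrays, but by little, and one control ASO array reached among them. The change was 0.18 (95% interval -0.01 to 0.38; limma, adjusted p = 0.298; exact permutation p = 0.029). That permutation p only restates the separation of the arrays, which 11% of all genes showed. For Cct8 the difference from PBS was 0.19 (95% interval -0.01 to 0.39), for Cct3 0.00 and for Cct6a 0.02. Cct5, detected on 8 arrays, had a difference of 0.30 with an interval from -0.40 to 0.99, and Cct7, detected on 4, stood at 2.60, 3.12, 1.89 and 3.26 in PBS, 2.92, 2.51, 2.85 and 2.35 in wig-1 ASO and 1.30, 2.39, 2.99 and 2.21 in control ASO. Cct2 was detected on 1 array and was not measured.

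DNAJA proteins are general partners of Hsp70. Dnaja2 had log2 signals of 6.51, 6.38, 6.39 and 6.51 in PBS, 6.24, 6.12, 6.07 and 6.26 in wig-1 ASO, and 6.34, 6.43, 6.18 and 6.25 in control ASO. All wig-1 ASO arrays lay below all PBS arrays, while the control ASO arrays overlapped both. The change of -0.27 (95% interval -0.47 to -0.08) did not pass the test (limma, adjusted p = 0.136; exact permutation p = 0.029), and a second probe gave -0.56 (limma, adjusted p = 0.254). The permutation p here only restates the separation of the arrays, which 11% of all genes showed. Dnaja1, the inducible form, was detected on 6 arrays and its change of 0.50 had an interval from -0.54 to 1.54, and Dnaja3, the mitochondrial form, had a difference of -0.11.

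DNAJB proteins include the strongest known suppressors of polyglutamine aggregation. Of 8 measured genes 4 were higher and 4 lower, with a median of 0.00. Dnajb1 (Hsp40), the partner of Hsp70 in disaggregation and a common readout of the heat shock response, had log2 signals of 9.46, 9.22, 9.23 and 9.42 in PBS, 9.36, 9.37, 9.35 and 9.18 in wig-1 ASO, and 9.54, 9.31, 9.51 and 9.35 in control ASO. The groups overlapped and the change of -0.02 had an interval from -0.24 to 0.20 (limma, adjusted p = 0.946). Dnajb2, a form enriched in neurons, had a difference from PBS of 0.07 (95% interval -0.21 to 0.34; limma, adjusted p = 0.835).

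Dnajb6, which blocks the nucleation of polyglutamine fibres, had log2 signals of 7.03, 7.53, 7.46 and 6.58 in PBS, 6.77, 6.99, 7.21 and 7.16 in wig-1 ASO, and 7.15, 7.46, 7.41 and 7.68 in control ASO. The groups overlapped and PBS replicate 4 was again the lowest, with a change of -0.12 (95% interval -0.56 to 0.33; limma, adjusted p = 0.825). Over the 12 fits that left out 1 array the change ran from -0.31 to 0.01. Other Dnajb6 probes gave 0.11 and -0.22. Dnajb4 (Hlj1), a heat-inducible form, stood at 3.92, 4.38, 4.14 and 4.53 in PBS, 3.61, 4.19, 3.40 and 3.74 in wig-1 ASO, and 3.43, 3.84, 4.29 and 2.93 in control ASO. The change of -0.51 over PBS (95% interval -1.10 to 0.09; limma, adjusted p = 0.359) was accompanied by one of -0.62 in control ASO against PBS, and a dimmer probe detected on 6 arrays gave 0.37 and 0.95.

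DNAJC proteins carry the J-domain on otherwise unrelated proteins with particular tasks. Of 21 measured genes 7 were higher and 14 lower in wig-1 ASO than in PBS, with a median of -0.06, and none passed the test (0 by SAM, and 0 at an unadjusted p under 0.05). Dnajc5 (cysteine string protein), which protects the release machinery of synaptic vesicles, had log2 signals of 10.06, 10.04, 9.80 and 9.93 in PBS, 9.89, 9.85, 9.93 and 9.87 in wig-1 ASO, and 10.28, 9.97, 10.11 and 10.04 in control ASO. Wig-1 ASO lay within the PBS range and below every control ASO array, with a change of -0.07 against PBS (limma, adjusted p = 0.75) and -0.22 against control ASO (95% interval -0.43 to -0.01; limma, adjusted p = 0.346). Dnajc6 (auxilin), the neuronal partner of Hspa8 in uncoating clathrin vesicles, had a difference from PBS of -0.11 (95% interval -0.32 to 0.11; limma, adjusted p = 0.623).

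Dnajc1, a membrane protein of the endoplasmic reticulum, was detected on 4 PBS, 3 control ASO and 0 wig-1 ASO arrays, and so passed the filter through the groups where it was brighter. Its log2 signal was 2.88, 2.94, 3.91 and 3.36 in PBS, 2.92, 2.84, 2.60 and 2.32 in wig-1 ASO, and 3.61, 2.65, 3.80 and 3.92 in control ASO. The log2 differences as measured were -0.60 from PBS (limma, adjusted p = 0.317) and -0.82 from control ASO (limma, adjusted p = 0.236). Neither passed the test. As the probe was not well above background in the wig-1 ASO group, its mean there is a bound. With each wig-1 ASO array set at its lowest detected signal where the probe was below it, the means differed 1.36-fold from PBS. From control ASO they differed 1.59-fold. These bounds compare group means, carry no interval for the spread between mice, and do not establish a fall.

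Dnajc27 (Rbj), a small GTPase with a J-domain, showed how far probes of a gene can differ. The brightest stood at 7.67, 7.83, 7.88 and 7.37 in PBS, 7.43, 7.35, 7.47 and 7.58 in wig-1 ASO, and 7.48, 7.72, 7.74 and 7.72 in control ASO, a change of -0.23 (95% interval -0.49 to 0.04; limma, adjusted p = 0.368). A dimmer probe, detected on 11 arrays, stood at 4.53, 4.50, 4.88 and 4.37 in PBS, 2.21, 3.41, 3.92 and 3.93 in wig-1 ASO, and 4.20, 4.06, 4.48 and 4.45 in control ASO. There every wig-1 ASO array lay below every other array, replicate 1 the farthest, and the change was -1.20 (95% interval -1.90 to -0.50; limma, adjusted p = 0.0675). Of the other DNAJC genes the rule named, Dnajc24, a helper of diphthamide synthesis, had a difference from PBS of -0.18 and Dnajc16 one of 0.06. Dnajc19, of the mitochondrial import motor, had one of -0.01, while the third probe, detected on 6 arrays, gave -0.54. Dnajc14 was detected on 4 arrays and stood at 3.08, 1.75, 1.73 and 3.17 in PBS, 3.19, 2.71, 1.99 and 3.10 in wig-1 ASO, and 2.94, 1.5, 2.13 and 2.48 in control ASO. The naming rule also took in Hspbp1, which exchanges the nucleotide of Hsp70, and Hspbap1, a partner of Hspb1, with changes of -0.11 and -0.14.

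Several probes were measured for 21 of the 56 genes, and for 14 of these all probes had the same sign of change. The dimmer probes had a median within-group SD, pooled over the 3 groups, of 0.36. It was 0.23 for the brightest probes of chaperone genes and 0.22 for the brightest probes of all genes. PBS replicate 4 was the lowest of the 12 arrays for 20 of the 81 chaperone probes (24.7%), against 13.1% of all probes, and the highest for 14 (17.3%, against 14.2%). Counted by gene it was the lowest for 9 of 56 (16.1%), as was PBS replicate 3, and the highest for 12 (21.4%). On PBS replicate 4 Hspd1, for example, was at 8.76 by its bright probe, against 8.77 to 8.86 on the other PBS arrays, while its dim probe read 4.11 against 5.57, 6.54 and 6.44, and the third probe of Hspa8 read 8.26 against 9.85, 10.09 and 9.72. The part of RNA quality in these readings was not tested.

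Chaperones of the endoplasmic reticulum were also read against the other folding factors of that compartment. Of the 7 measured members that work there 5 were higher in wig-1 ASO than in PBS, with a median of 0.13, and none passed the test (0 by SAM, and 0 at an unadjusted p under 0.05). Dnajc3 (p58IPK), which curbs the kinase of the stress response, had log2 signals of 5.32, 5.16, 5.02 and 5.04 in PBS, 5.15, 5.43, 5.35 and 5.47 in wig-1 ASO, and 5.04, 5.18, 4.68 and 4.77 in control ASO. Its change was 0.21 over PBS (limma, adjusted p = 0.445) and 0.43 over control ASO (95% interval 0.14 to 0.72; limma, adjusted p = 0.158), with 1 wig-1 ASO array below 1 control ASO array. The difference from PBS was 0.13 for Dnajb9, a BiP partner, and -0.02 for Dnajc10, a disulfide reductase.

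Of 15 measured ER folding enzymes and factors outside the naming rule 13 were higher in wig-1 ASO than in PBS, with a median of 0.38 against -0.01 over all genes, and 8 were higher at an unadjusted p under 0.05 (10.5% of all genes). At an adjusted p under 0.05, 1 was called in limma and 0 by SAM. This was Creld2, a secreted factor induced by ER stress, with log2 signals of 5.94, 5.67, 5.85 and 5.75 in PBS, 5.98, 6.47, 6.35 and 6.59 in wig-1 ASO, and 5.98, 6.19, 6.19 and 6.18 in control ASO. It rose by 0.55 over PBS (limma, adjusted p = 0.0467), but the control ASO arrays lay above PBS too and the difference from them was 0.22 (limma, adjusted p = 0.521). The collagen chaperone Serpinh1 (0.59), the BiP cofactor Sdf2l1 (0.80; limma, adjusted p = 0.0962) and the disulfide isomerases P4hb (0.44; limma, adjusted p = 0.0507) and Pdia3 (0.41) did not pass. Without wig-1 ASO replicate 1, 4 were called (Creld2, Sdf2l1, P4hb and Pdia3), and Creld2 was not called in the other 11 fits that left out 1 array. Against control ASO the median was 0.22 and 0 were called in limma or by SAM, with 6 higher at an unadjusted p under 0.05 (8.23% of all genes). The marker sums of microglia and reactive astrocytes given above moved with this list, and their part in it was not tested.

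The ER stress element is shown for the members that carry it, measured or not, with 1 match a gene. The Hsp90b1 promoter holds a second match in the other orientation, in the window chr10:86705527-86705556, which is not shown.
Hsp90b1, chr10:86705632-86705661 (-): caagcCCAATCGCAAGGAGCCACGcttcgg
Dnajc3, chr14:118937822-118937851 (+): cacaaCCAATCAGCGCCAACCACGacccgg
Hspa5, chr2:34772020-34772049 (+): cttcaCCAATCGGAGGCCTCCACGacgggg
Capitals mark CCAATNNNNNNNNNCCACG, searched on both strands in the RefSeq promoters of build GRCm38.p6. It was found in 3 of 82 chaperone promoters (3.66%) and in 0.119% of all promoters. Hsp90b1 and Dnajc3 were higher than PBS by 0.16 and 0.21 and did not pass the test, and Hspa5 was not well above background.

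Co-chaperones that work with these families had median differences near 0. Of 15 measured partners of Hsp70 1 was called in limma (3.81% of all genes) and 0 by SAM, with 3 higher and 1 lower at an unadjusted p under 0.05 (10.5% and 8.25% of all genes). The gene called was Bag3, the partner of Hspb8 and Hspb6, with log2 signals of 6.68, 6.40, 6.67 and 6.72 in PBS, 6.88, 7.49, 7.21 and 7.60 in wig-1 ASO, and 7.15, 6.86, 7.06 and 7.21 in control ASO. All wig-1 ASO and all control ASO arrays lay above all PBS arrays, and these treated groups overlapped each other. Bag3 rose by 0.68 over PBS (limma, adjusted p = 0.0402) and differed from control ASO by 0.23 (limma, adjusted p = 0.591). Of the 12 fits that left out 1 array it was called in 1, without wig-1 ASO replicate 1 (limma, adjusted p = 0.00577), and the highest adjusted p in limma was 0.122.

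Among 17 partners of Hsp90, 13 factors around CCT (its subunit Tcp1, prefoldin, phosducin-like proteins, tubulin cofactors and related factors) and 12 mitochondrial folding factors and proteases, 0 were called in limma and 0 by SAM. Their median changes were -0.05, -0.01 and -0.11, with 0, 1 and 2 genes lower at an unadjusted p under 0.05 and 0 higher. Of 20 genes known to be induced by heat, some of which are members above, 1 was called (Bag3), against 3.81% of all genes, and the median change was 0.02. The 3 measured heat shock factors and regulators had a median of 0.00 and 0 calls in limma or by SAM, and Hsf1 has no annotated probe in the table used here.

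**Figure D3:**
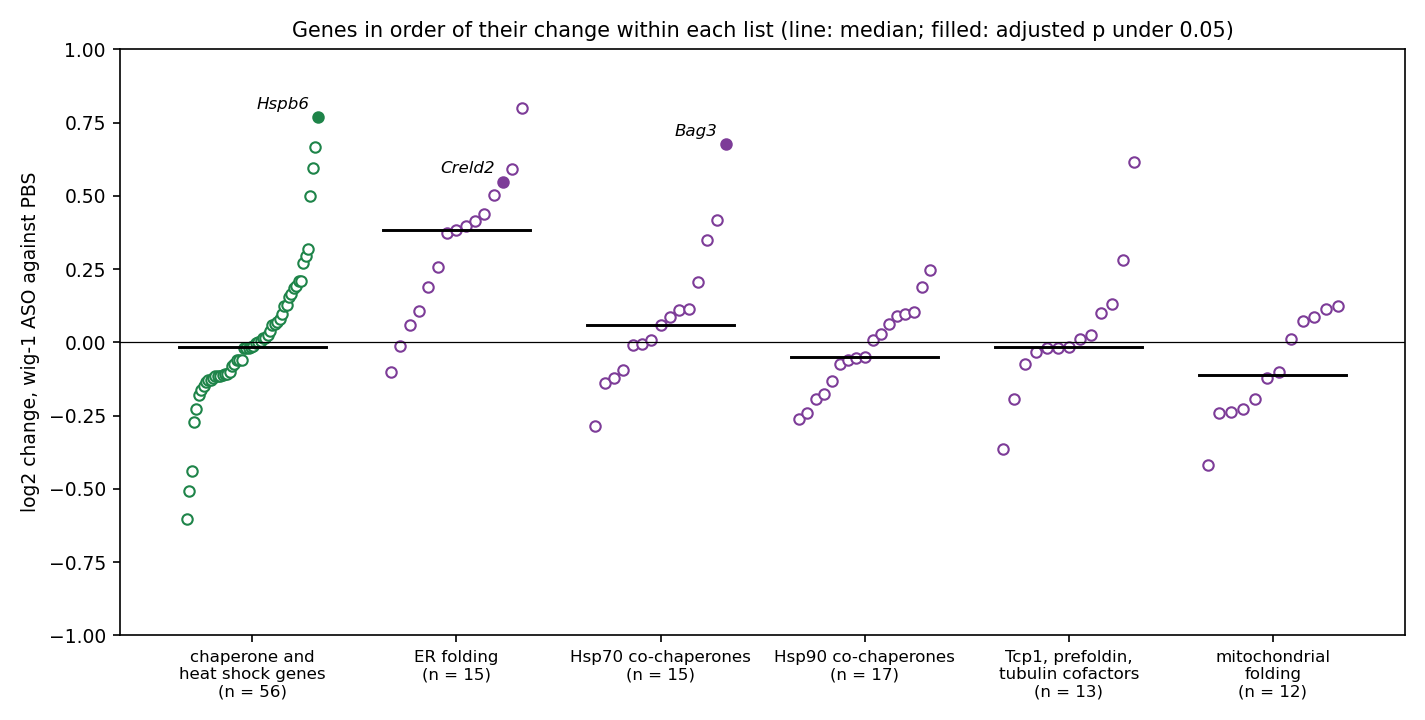
Log2 change in wig-1 ASO against PBS of the 56 chaperone genes and of the genes of 5 lists of partners and other folding factors (points, in order of their change within each list), with the median of each as a line. Hspb6, Creld2 and Bag3 are filled (adjusted p under 0.05), and the ER folding list has a median of 0.38 while the others lie between -0.11 and 0.06.

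The control ASO gave a second baseline for wig-1 suppression. In wig-1 ASO against control ASO, which shares the wig-1 ASO arrays with the first, 0 of 56 genes were called in limma (1.08% of all genes) and 0 by SAM. By probe the count was 0 of 81 (0.943% of all probes). At an unadjusted p under 0.05 there were 5 (Hspb6 and Dnajc3 higher, Dnajc1, Dnajc5 and Hspa12b lower), or 8.93% against 14.7% of all genes. The arrays of the groups did not overlap for 6 genes (Hspb6 and Dnajc19 higher, Dnaja3, Dnajc18, Dnajc5 and Hspa1a lower), where 9.29% of all genes did not.

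The control ASO alone gave no called member against PBS. In control ASO against PBS, which shares its PBS arrays with the first comparison, 35 genes were higher and 21 lower, with a median of 0.04 against 0.01 over all genes. None of the 56 was called in limma (0% of all genes) or by SAM, and 1 (Dnajb4, lower by 0.62) had an unadjusted p under 0.05 (1.79%, against 6.29% of all genes). For 0 of the 56 did the arrays of both groups lie wholly apart, where 5.01% of all genes did.

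On the array 147 probes for 77 genes carried a name of these families, and 66 probes did not reach the detection limit, which left 21 genes unmeasured. The measured genes just inside the limit were Cct7 and Dnajc14 on 4 arrays, Hspb3 on 5 and Dnajb13 and Dnaja1 on 6, and no gene lay just outside it on 3. Dnajb13, a protein of motile cilia, stood at 2.56, 2.19, 3.32 and 3.46 in PBS, 2.93, 3.10, 3.51 and 2.83 in wig-1 ASO, and 3.87, 2.54, 2.01 and 1.93 in control ASO, with the groups overlapping.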

How the data were processed

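The authors deposited, for 45281 probes on 12 arrays, a linear intensity with its detection p-value, and log2 values that equal the log2 of these intensities to within 5.58e-09. All arrays held the same set of intensities, so the deposited signals were already quantile normalized (lumi and siggenes are the packages named in the study's methods). They were used as log2 with no further normalization. Conditions came from the labels, and the striatum, the age and the dose from the study's methods. Gene names came from the platform annotation (34885 probes with 1 symbol, 10378 with none, 18 with several).

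Probes detected (p under 0.01) on at least 4 arrays were kept, and each gene was represented by its brightest kept probe. A linear model of the 3 groups was fitted over 17188 probes with limma 3.58.1 in R 4.3.3 (9 residual degrees of freedom), with Benjamini-Hochberg adjustment over all of them, and tested on simulated data. For single genes an exact permutation test of 4 against 4 arrays, two-sided, was added. SAM was rebuilt at a false discovery rate of 0.1. The number of arrays, 4 a group, limits the precision.

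The members and the lists were chosen with earlier results of these data known. Genes named are a fixed core of chaperones, every member past the test, the 6 largest rises and falls in wig-1 ASO against PBS, members whose probes disagreed, members detected on 4 or 5 arrays, and list genes past the test. Others (among them Cct4, Cct8, Dnajc3, Dnajb9, Serpinh1 and Sdf2l1) were named after their values were seen, for their role or because a count rested on them. Alternatives varied the filter, the groups fitted, the variance model, array weights, the offset, the centring, the probe summary and the replicates. Promoter sequences are RefSeq's, build GRCm38.p6.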

Additional observations from a re-analysis of the deposited data

Results flagged for a closer look

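In 7 of 81 groups of 4 arrays, over 27 named chaperone genes, 1 array lay far from the other 3 (Dixon's test at 95%), where chance alone gives about 1 in 20. Dnajb1 read 9.18 on wig-1 ASO replicate 4 (others 9.35 to 9.37) and Dnajb2 8.29 on the same array (8.46 to 8.49). On PBS arrays, Hspd1 read 8.86 on replicate 1 (8.76 to 8.77) and Dnajc6 10.59 on replicate 4 (10.73 to 10.75). On control ASO arrays, Hspa1a read 3.92 on replicate 1 (3.53 to 3.58), Dnajc27 7.48 on replicate 1 (7.72 to 7.74) and Hspe1 8.01 on replicate 2 (7.23 to 7.30).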

How the results depend on the processing

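Hspb6 was higher in wig-1 ASO than in PBS under all 25 alternatives and was called in 14 of them. The count of chaperone genes called in that comparison, 1, became 0 when only those groups were fitted (Hspb6, limma, adjusted p = 0.0892), with no detection filter (0.0713) and with the replicate number as a block (0.0702). The count of probes likewise went from 1 to 0 under these, and to 2, Dnajc27 with Hspb6, with a variance trend and robust fit, with log2(signal + 16), and, chosen after seeing the data, without wig-1 ASO replicate 1 and PBS replicate 4. Leaving out 1 array gave 0 to 2 genes and 0 to 3 probes. In wig-1 ASO against control ASO the counts of genes and of probes went from 0 to 1 (Hspb6) with probes detected on all 12 arrays, a variance trend and robust fit, array weights, log2(signal + 16) and without both arrays, and leaving out 1 array gave 0 to 1. Counts in control ASO against PBS stayed at 0. The cause of these moves was not tested.

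Replicate numbers did not pair the mice. After each probe's group mean was subtracted, the remainders of same-numbered arrays correlated at -0.14 to 0.13. Of the 12 arrays, 1 correlated best with its own number in another group. Of 29 named members 10, none of them called, changed sign under at least 1 alternative. Averaging all probes of a gene moved Hspa4l to 0.14, Dnajb4 to -0.07 and Dnajc27 to -0.71. Background correction and normalization by neqc was planned and not run, since the signals were already normalized. For Hspb3, Hspa1a, Dnaja1, Cct5, Cct7 and Dnajc14, detected on 4 to 9 arrays, the interval in wig-1 ASO against PBS held both no change and a 1.5-fold change.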
